A study of Homo sapiens with 4 samples.

Results

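Kallikrein-retaining cells were the 10% of single LNCaP cells with the highest share of KLK2 and KLK3 RNA after 48 h of enzalutamide (ENZ). LNCaP is an androgen-sensitive line established from a human prostate cancer metastasis, and ENZ is an antiandrogen drug. The cells came from the library LNCaP-ENZ48 (10 µM ENZ for 48 h), in which 4565 of 4812 deposited barcodes had at least 1500 genes, at least 5000 UMIs and less than 20% mitochondrial UMIs. A UMI (unique molecular identifier) stands for 1 captured RNA molecule. Each cell was given a score, the KLK2 and KLK3 UMIs per 10000 UMIs of that cell, and the 457 cells in the top 10% were selected on it, of 15452 cells that passed the same limits in the whole series. They were compared with the 2801 cells of that library in which no UMI of either gene was seen. The other libraries were LNCaP in the solvent DMSO (0.1%, 48 h) and the resistant derivatives RES-A and RES-B, both cultured in 10 µM ENZ. All 4 libraries descend from 1 cell line and each group was 1 library, so no difference had a replicate check and no test was run. Whether a cell had kept its kallikrein RNA through treatment or regained it cannot be told from a single time point.

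KLK2 and KLK3 encode secreted serine proteases of the prostate epithelium, and the KLK3 product is prostate-specific antigen. Both genes are classic targets of androgen signalling, and their RNA drops when that signalling is blocked. Other genes of the same pathway include the kallikrein KLK4, the membrane protease TMPRSS2 and the chaperone FKBP5. Cells short of oxygen use a separate program, which includes glycolytic enzymes such as PGK1 and LDHA and the mitophagy receptor BNIP3. Genes of this program are induced through a short DNA element with the core ACGTG or GCGTG.

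On GRCh38, KLK3 (ENSG00000142515) lies at chr19:50854915-50860764 and KLK2 (ENSG00000167751) at chr19:50861568-50880567, both on the plus strand. KLK4 (ENSG00000167749), on the minus strand at chr19:50906351-50911395, is in the same cluster. The 250 bases before the start sites of KLK2 and KLK3 are shown because these 2 genes chose the cells and yet were not always seen in the same cells. The sequences are from RefSeq (GRCh38.p14), chr19:50873189-50873438 and chr19:50854665-50854914, and capitals mark runs of at least 12 bases present in both, with the RefSeq start of KLK2 inside the longer span given above.
KLK2: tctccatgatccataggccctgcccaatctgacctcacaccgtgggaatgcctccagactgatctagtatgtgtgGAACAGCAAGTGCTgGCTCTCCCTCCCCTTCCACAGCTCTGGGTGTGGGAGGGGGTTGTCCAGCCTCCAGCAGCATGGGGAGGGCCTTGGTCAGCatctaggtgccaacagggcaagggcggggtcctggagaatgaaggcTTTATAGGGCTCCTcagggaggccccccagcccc
KLK3: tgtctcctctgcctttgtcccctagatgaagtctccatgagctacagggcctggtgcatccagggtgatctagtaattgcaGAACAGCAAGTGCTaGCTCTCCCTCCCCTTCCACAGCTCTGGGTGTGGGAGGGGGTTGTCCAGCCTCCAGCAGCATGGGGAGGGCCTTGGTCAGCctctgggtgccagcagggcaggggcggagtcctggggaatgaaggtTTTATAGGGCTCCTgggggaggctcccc
Shared runs covered 108 of 250 bases in each promoter, and the longest was 80 bases. The androgen response motif AGAACA, 1 arm of the full element, searched on both strands, was found once in the KLK3 window and not in the KLK2 window, and 12.4% of all 35116 promoters of this table held it. At the matching place, where the first shared run begins, the KLK2 window reads GGAACA. It thus misses an exact match there by the first base only.

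The next 2 windows, before PGK1 (chrX:78103998-78104247, plus strand) and LDHA (chr11:18394313-18394562, plus strand, the first of its 2 entries), belong to the gene group that differed most evenly between the cells compared. Capitals mark the hypoxia response core ACGTG or GCGTG on either strand, and neighbouring sites may overlap.
PGK1: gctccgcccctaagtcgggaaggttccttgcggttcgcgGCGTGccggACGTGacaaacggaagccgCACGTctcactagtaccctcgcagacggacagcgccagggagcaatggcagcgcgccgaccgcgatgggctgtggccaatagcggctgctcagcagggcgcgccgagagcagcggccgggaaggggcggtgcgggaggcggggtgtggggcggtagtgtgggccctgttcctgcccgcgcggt
LDHA: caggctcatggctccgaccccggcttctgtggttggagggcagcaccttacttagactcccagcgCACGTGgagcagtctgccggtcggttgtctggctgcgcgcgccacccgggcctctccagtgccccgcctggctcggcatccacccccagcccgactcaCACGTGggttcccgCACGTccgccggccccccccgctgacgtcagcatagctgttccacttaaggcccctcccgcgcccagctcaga
The core was found 3 times before PGK1 and 5 times before LDHA. It was present in 11 of the 13 glycolysis and hypoxia genes matched to the table (84.6%), in 14 of 18 androgen-induced genes (77.8%) and in 43.2% of all promoters. A listed gene counted if any of its entries held the core, while 43.2% is the share of single entries. Genes with several entries thus had more chances, and these shares are not of like units. A match describes the letters and not a bound site.

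The score that chose the cells was unevenly spread. Across the library, KLK3 had 6391 UMIs and KLK2 had 1785. The threshold was a score of 3.46, with the lowest member at 3.47 and the highest other cell at 3.45. Members held 2 to 74 kallikrein UMIs with a median of 10, and 72 members had 20 or more. They made up 9.07% of all UMIs and 69.7% of the kallikrein UMIs. If every cell had shared 1 kallikrein level, the depths of the cells would have left 888 cells at 0 and put 101 cells past the threshold, against 2801 and 457 observed. In members KLK3 stood at 731 CPM (UMIs per 1000000 UMIs summed over the cells, 95% Poisson interval 710 to 753), beside 733 CPM over all LNCaP cells in DMSO (726 to 740). KLK2 was at 190 CPM in members (179 to 201) and 321 CPM in the DMSO library (317 to 326). Members are a selected 10% of their library, while these DMSO values cover all cells. In the top 10% of DMSO cells by the same score, KLK3 was at 3377 CPM and KLK2 at 803 CPM. These values chose the cells and are given as a description. A score at or above the same threshold was found in 61.1% of DMSO cells, 3.04% of RES-B cells and no RES-A cell.

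**Figure D1:**
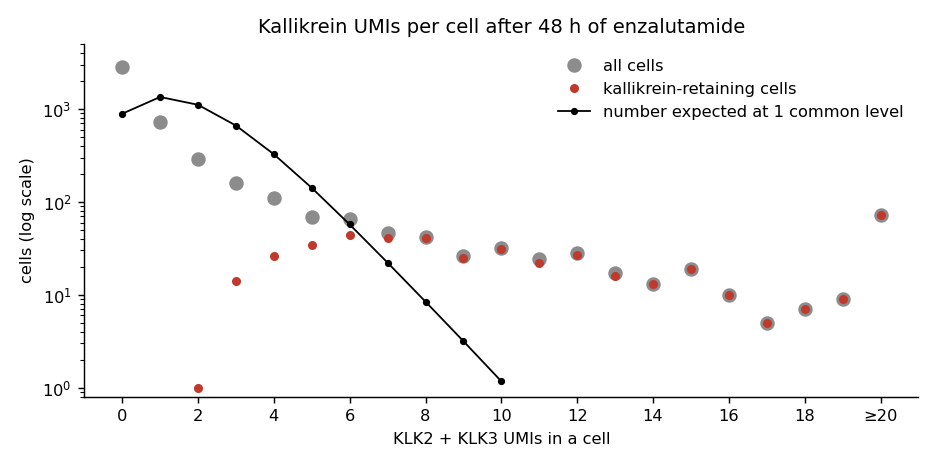
Number of LNCaP-ENZ48 cells (y, log scale) by their KLK2 plus KLK3 UMIs (x, the last point pooling 20 or more). Grey points are all cells, red points kallikrein-retaining cells, and the black line the number expected if all cells had 1 kallikrein level. The observed points exceed the line at 0 (2801 against 888 cells) and from 6 UMIs upward.

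The kallikreins tended to be seen together. When cells were chosen by KLK3 alone, so that KLK2 had no part in the choice, KLK2 was at 94.6 CPM (87.2 to 102) in the top 10% and at 18.9 CPM (17.7 to 20.2) in the 3162 cells with no KLK3 UMI, a log2 ratio of 2.32 (95% binomial interval 2.17 to 2.48). In the reverse choice KLK3 was at 347 CPM in the top 10% by KLK2 and at 64.8 CPM in the 3868 cells with no KLK2 UMI, a log2 ratio of 2.42. KLK4, which encodes another prostate kallikrein and was not used in the score, was at 81.2 CPM (74.2 to 88.6) in kallikrein-retaining cells and at 25.2 CPM (23.7 to 26.8) in cells at 0, a log2 ratio of 1.69 (1.53 to 1.84). Along the cells between, ordered by score into low, middle and high classes of 436, 435 and 436 cells, KLK4 was at 32.0, 36.3 and 49.7 CPM, so that each step of the score had a higher level. These classes differed in depth, with medians of 17741, 12773 and 14307 UMIs per cell. The part of depth in the steps between these classes was not tested, for KLK4 or for the genes below. All intervals here cover counting error only.

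Other androgen-induced genes were split. Of the 58 listed genes in the matrix, 27 reached 20 CPM on at least 1 side, and a gene was counted as higher or lower when its log2 ratio was at least 0.32 in size. By that limit 7 of the 27 were higher in kallikrein-retaining cells and 1 was lower. Over all 4979 genes at 20 CPM or more, 286 genes (5.74%) were higher and 434 genes (8.72%) lower. With the minimum taken over all cells of the library, 6 of 25 listed genes were higher and 1 was lower (4.54% and 8.41% of all genes so filtered). Of the 30 listed genes seen but below the minimum on both sides, 21 had log2 ratios above 0 and 9 below. The intervals of 5 of these lay above 0 and those of 2 below it. The list's median log2 ratio was 0.08, beside -0.05 over all genes, and its summed level was 2269 CPM in members and 1993 CPM in cells at 0. The higher genes included KLK4, the stress-responsive gene NDRG1 (1.64), the transporter ABCC4 (0.85), TMPRSS2 (0.83), the fatty acid elongase ELOVL5 (0.51) and TPD52 (0.41). The lower one was GUCY1A1 (-0.46), a subunit of soluble guanylate cyclase. NDRG1 is known as a hypoxia-induced gene as well.

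Among the best-known targets, TMPRSS2 was at 40.8 CPM (35.9 to 46.1) in members and 22.98 CPM (21.5 to 24.5) in cells at 0, and stood at 107 CPM over the DMSO library. FKBP5 was at 11.2 CPM (8.68 to 14.1) in members and 10.8 CPM (9.80 to 11.9) in cells at 0, with a log2 ratio of 0.05 whose interval ran from -0.34 to 0.42. PMEPA1, which encodes a membrane adaptor, was at 29.9 and 30.3 CPM, a log2 ratio of -0.02 (-0.25 to 0.20). For the solute carrier SLC45A3 the log2 ratio was -0.32 (-0.83 to 0.16). The intervals of FKBP5, PMEPA1 and SLC45A3 included 0. FKBP5 and SLC45A3 were below 20 CPM on both sides. So were ACPP and CAMKK2, whose log2 ratios were 1.13 (0.62 to 1.62) and 0.65 (0.35 to 0.93).

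**Figure D2:**
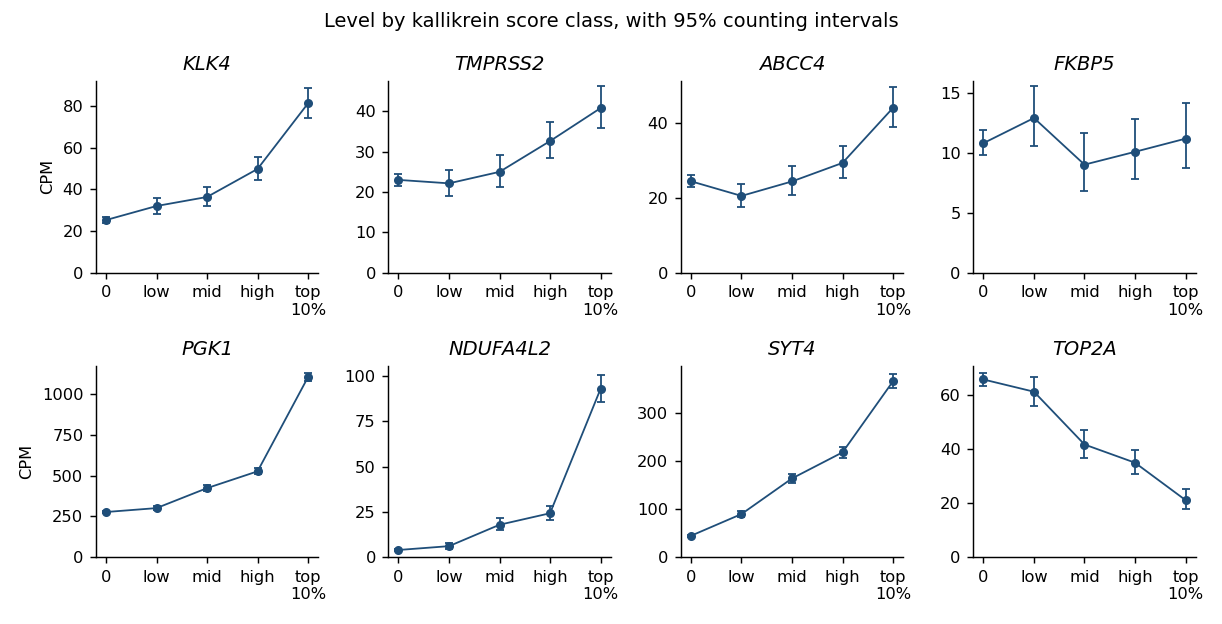
Level in CPM (y, linear from 0, a separate scale per gene) of 8 genes in 5 classes of LNCaP-ENZ48 cells (x): cells at 0, low, middle and high classes of the cells between, and kallikrein-retaining cells. Bars are 95% Poisson intervals. KLK4, PGK1, NDUFA4L2 and SYT4 are highest in the top class, TOP2A is lowest there (21.2 CPM against 65.8 CPM at 0), and the FKBP5 intervals overlap throughout.

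Genes known to be repressed by androgens did not form 1 pattern. Of the 11 listed genes, 6 reached 20 CPM, with 2 higher and 3 lower past the limit of 0.32 in kallikrein-retaining cells (5.74% and 8.72% of all genes) and a median log2 ratio of -0.22. CAMK2N1, an inhibitor of the kinase CaMKII, was at 420 CPM in members and 163 CPM in cells at 0, a log2 ratio of 1.36 (1.30 to 1.43), which was 0.24 when KLK2 alone chose the cells. The other higher gene was the cholinesterase BCHE (0.35, 0.08 to 0.60). The glucuronosyltransferases UGT2B15 (-0.71, interval -0.96 to -0.46) and UGT2B17 (-0.46, -0.72 to -0.20) and the decarboxylase DDC (-0.52) were lower, with UGT2B15 at -0.33 when KLK3 alone chose the cells and UGT2B17 at -0.28 against all other cells. FOLH1, which encodes prostate-specific membrane antigen, was at 541 and 532 CPM. Reads of the 2 UGT2B genes may be divided between near copies.

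Glycolysis and hypoxia genes were higher in kallikrein-retaining cells. Of the 21 listed genes, 15 reached 20 CPM on either side and were higher past the limit of 0.32 (5.74% of all genes), with log2 ratios from 0.74 for PDK1 to 1.99 for PGK1 and a median of 1.27. Of these, 3 reached 20 CPM in members only, so that the filter itself favoured a higher level there. With the minimum taken over all cells of the library, 12 genes passed and 12 were higher (4.54% of all genes so filtered). The 6 genes below the minimum all had log2 ratios above 0, and the intervals of 4 of them excluded 0. The list's summed level was 12698 CPM in members and 5533 CPM in cells at 0. The glycolytic enzyme PGK1 was at 1101 CPM (1075 to 1127) in members, 277 CPM (272 to 282) in cells at 0, and 301, 423 and 525 CPM in the low, middle and high classes. LDHA, which makes lactate, was at 1117 and 350 CPM (log2 ratio 1.68). BNIP3, a mitophagy receptor, was at 946 and 332 CPM (1.51), and VEGFA, an angiogenic growth factor, at 59.0 and 24.4 CPM (1.27). GAPDH, often used as a reference gene, was at 5637 and 2791 CPM (1.01).

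The genes with the highest ratios held more of this program. NDUFA4L2 (chr12:57234903-57240715), a mitochondrial protein known to be induced in low oxygen, was at 92.8 CPM (85.4 to 101) in members and 4.09 CPM (3.49 to 4.77) in cells at 0, a log2 ratio of 4.50 (4.25 to 4.76). MIR210HG, the host transcript of a hypoxia-induced microRNA, had a log2 ratio of 2.09, the collagen prolyl hydroxylase subunit P4HA1 1.72, and the growth factor VEGFB 1.55. The 12 highest among genes with 1 sign under every planned choice of cells also included OR51E1, an olfactory receptor known from prostate (log2 ratio 3.49). The trefoil peptide TFF3 (2.43) and the long non-coding RNA AC069228.1 (1.52) were among them too. SYT4 (chr18:43267892-43277535), a synaptotagmin of secretory vesicles, was at 366 CPM (351 to 381) in members and 44.9 CPM (42.9 to 47.1) in cells at 0, a log2 ratio of 3.02 (2.94 to 3.11). KLK4, NDRG1, PGK1 and LDHA made up the rest. Of these genes, NDUFA4L2, OR51E1, TFF3, MIR210HG and VEGFB reached 20 CPM in members only. The filter itself thus favoured a higher level there for them. Several of these ratios were far smaller when KLK2 alone chose the cells, at 1.81 for NDUFA4L2, 0.61 for OR51E1, 0.26 for AC069228.1 and 0.10 for SYT4. Some of these pooled levels came from a minority of members. A UMI of SYT4 was seen in 38.7% of members and 13.4% of cells at 0. For NDUFA4L2 these shares were 22.1% and 5.00%, for OR51E1 13.8% and 1.64%, and for PGK1 97.2% and 93.8%.

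Not every member carried the glycolysis and hypoxia program. UMIs were drawn at random until each cell held 5000, and a cell was counted as program-high when more than 61 of them were of the list, which held for 9.90% of all cells. Of the kallikrein-retaining cells 213 of 457 were program-high (46.6%, exact 95% interval 42.0 to 51.3), against 108 of 2801 cells at 0 (3.86%, 3.17 to 4.64). The shares in the low, middle and high score classes were 2.75%, 10.8% and 16.5%. Without thinning, the shares of members and cells at 0 were 47.3% and 3.89%. Program-high members had a lower median mitochondrial share (7.28%) than the other members (9.63%), and so had program-high cells at 0 (7.03%) beside the other cells at 0 (9.43%).

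The kallikrein and androgen genes were read again within each of these groups of cells. Among cells that were not program-high, KLK4 was at 70.7 CPM (62.3 to 80.0) in the 244 members and 24.7 CPM (23.1 to 26.3) in the 2693 cells at 0, a log2 ratio of 1.52 (1.32 to 1.72). Among program-high cells the KLK4 ratio was 1.12 (0.69 to 1.58). TMPRSS2 had a log2 ratio of 0.70 (0.42 to 0.96) in cells that were not program-high and 0.91 (0.32 to 1.54) in program-high cells. SYT4 had 2.73 (2.61 to 2.84) and 1.66 (1.44 to 1.88). The KLK4, TMPRSS2 and SYT4 ratios were thus above 0 in both groups of cells. The split did not even out the program. PGK1 was at 368 CPM (348 to 388) in members and 239 CPM (234 to 243) in cells at 0 that were not program-high. In program-high cells it was at 2127 and 1506 CPM. The part of this remaining difference in the ratios above was not tested. NDUFA4L2 was at 213 CPM in program-high members and 6.66 CPM in the others, and at 13.8 and 3.78 CPM in the corresponding cells at 0.

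Kallikrein-retaining cells were not of 1 kind. UMIs of KLK3 without KLK2 were seen in 214 members, UMIs of both genes in 190, and UMIs of KLK2 without KLK3 in 53, with median depths of 13179, 12657 and 10502 UMIs per cell. KLK2 was captured less often than KLK3, so a member without a KLK2 UMI may still have held its RNA. SYT4 was at 492 CPM (467 to 518) in members with KLK3 only, 300 CPM (280 to 322) with both and 19.2 CPM (9.61 to 34.4) with KLK2 only, which is below the 44.9 CPM of cells at 0. GSTA1, a glutathione transferase, was at 90.6, 45.4 and 3.50 CPM, and the metallothionein MT1G at 210, 132 and 3.50 CPM, each resting on 2 UMIs in members with KLK2 only. CAMK2N1 was at 500, 408 and 64.7 CPM. KLK4 had the opposite order, with 68.9 CPM (59.7 to 79.0), 80.0 CPM (69.6 to 91.5) and 150 CPM (120 to 186). GSTA1 was chosen after its values were seen.

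The glycolytic enzymes had the same order as KLK4. PGK1 was at 936 CPM (902 to 972), 1218 CPM and 1407 CPM (1311 to 1507) in members with KLK3 only, both and KLK2 only, and LDHA at 992, 1210 and 1324 CPM, all above the levels in cells at 0. The share of program-high cells was 39.3%, 52.6% and 54.7%. NDUFA4L2 did not have this order and was at 90.6 and 113 CPM in members with KLK3 only and with both, and at 8.75 CPM (2.84 to 20.4) with KLK2 only. TMPRSS2 was at 38.3, 45.8 and 29.7 CPM, with overlapping intervals.

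**Figure D3:**
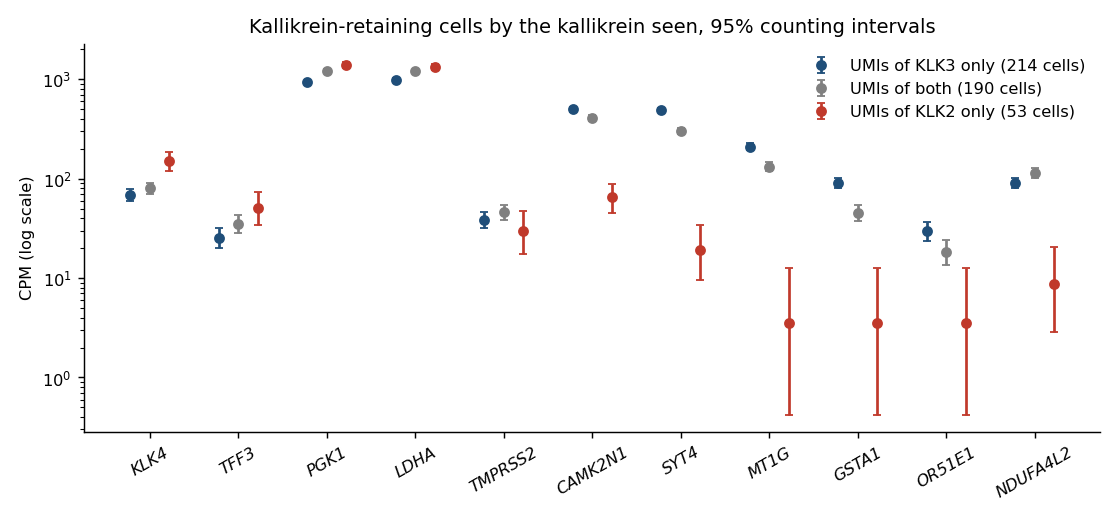
Level in CPM (y, log scale) of 11 genes (x) in kallikrein-retaining cells with UMIs of KLK3 only (blue, 214 cells), of both genes (grey, 190 cells) and of KLK2 only (red, 53 cells). Bars are 95% Poisson intervals. SYT4, MT1G, GSTA1, OR51E1, CAMK2N1 and NDUFA4L2 are lowest in the KLK2-only cells, while KLK4, PGK1 and LDHA are highest there.

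Dividing cells were scarcer among kallikrein-retaining cells. Of the 52 listed G2/M genes in the matrix, 34 reached 20 CPM on either side, and 31 of them were lower past the limit in members and none was higher past it, beside 8.72% of all genes that were lower. Of the 34, 13 reached 20 CPM in cells at 0 only, so that the filter itself favoured a lower level in members. With the minimum taken over all cells of the library, 26 of 29 were lower (8.41% of all genes so filtered) with a median of -0.94, and the 18 genes below the minimum on either side all had intervals below 0. The median log2 ratio was -1.18 and the lowest was -2.00 for GTSE1. TOP2A, the topoisomerase of mitotic chromosomes, was at 21.2 CPM (17.7 to 25.1) in members and 65.8 CPM (63.3 to 68.3) in cells at 0, a log2 ratio of -1.63 (-1.90 to -1.38), and at 61.2, 41.7 and 35.0 CPM in the low, middle and high classes. Of the 11 S phase genes past 20 CPM (42 in the matrix), 7 were lower past the limit and none higher, with a median of -0.36, and 3 of the 11 passed the minimum in cells at 0 only. At 5000 UMIs per cell, more than 26 UMIs of the G2/M list were found in 18 of 457 members (3.94%, 2.35 to 6.15) and 316 of 2801 cells at 0 (11.3%, 10.1 to 12.5). The unthinned shares were 4.38% and 11.5%, and the median cell of both groups had 3 thinned UMIs of the list.

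Among genes with 1 sign under every planned choice of cells, the 12 lowest ratios were mostly of mitotic genes. Besides TOP2A they included the spindle factor TPX2 (-1.65), the kinase AURKA (-1.57), the kinetochore proteins CENPE (-1.50) and ZWINT (-1.37), the cohesin protector SGO2 (-1.61), KIF20B (-1.48), PBK (-1.39), UBE2C (-1.36) and the replication factor ORC6 (-1.63). ID3, an inhibitor of helix-loop-helix transcription factors, was lowest, at 7.76 CPM in members and 33.2 CPM in cells at 0 (log2 ratio -2.10, interval -2.54 to -1.68), and had -1.12 for the top 20% of cells. PTGFR, the receptor of prostaglandin F, was at 9.38 and 24.9 CPM (-1.41). All of these 12 genes but TOP2A and UBE2C reached 20 CPM in cells at 0 only. The filter itself thus favoured a lower level in members for them. With cells chosen by KLK2 alone all of these ratios but that of ORC6 (-2.03) were nearer 0. TOP2A had -0.97, TPX2 -0.90, AURKA -0.68, CENPE -0.51, SGO2 -0.78, KIF20B -0.94, PBK -0.70 and PTGFR -0.27. In cells at or below the library's median for the S and G2/M lists together, fewer dividing cells are left by construction. There TPX2 had -0.02, ZWINT -0.22, UBE2C -0.27, KIF20B -0.30 and ORC6 -0.61. CENPE had -0.75, TOP2A -0.85, SGO2 -1.07, PTGFR -1.09, AURKA -1.18, PBK -1.67 and ID3 -1.95. This choice of cells was part of the naming rule, so none of these signs could differ. KLK4 had a log2 ratio of 1.61.

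**Figure D4:**
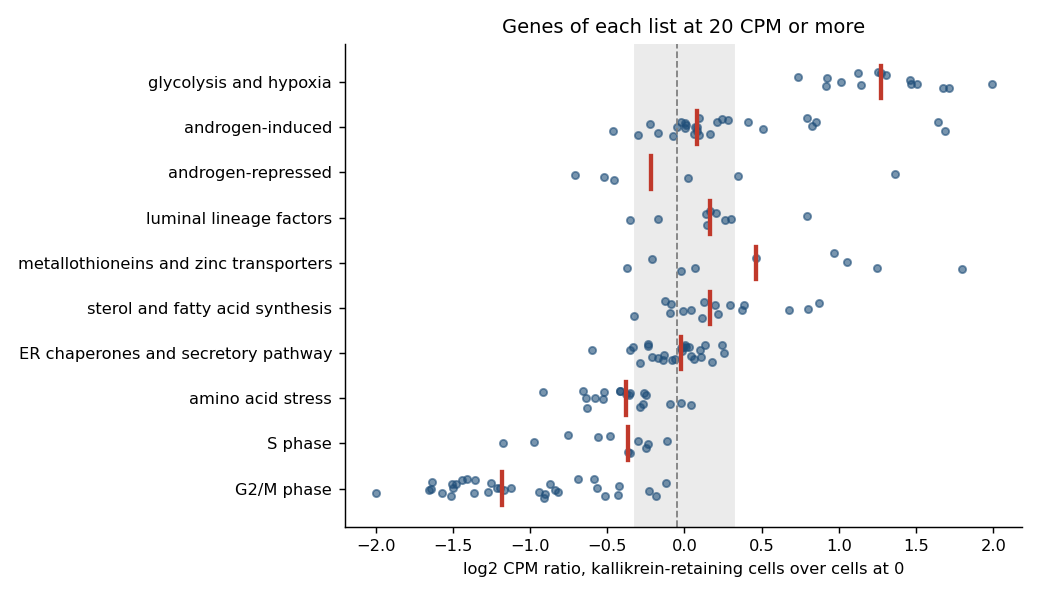
Log2 CPM ratio of kallikrein-retaining cells over cells at 0 (x) for genes of 10 lists (y). Each blue point is a gene at 20 CPM or more, red bars are list medians, the dashed line is the median of all genes (-0.05), and grey spans log2 ratios under 0.32 in size. All glycolysis and hypoxia points lie right of the grey band, and 31 of 34 G2/M points lie left of it.

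The cells carried luminal markers. KRT8 was at 225 CPM in members and 175 CPM in cells at 0, KRT18 at 484 and 404 CPM, HOXB13 at 182 and 152 CPM, and FOXA1 at 160 and 144 CPM. Of the 12 luminal lineage factors in the matrix, 9 reached 20 CPM, with a median log2 ratio of 0.16, and ESRP1 was lower past the limit. Of the 8 luminal keratin and junction genes, 7 reached it, with 2 higher (5.74% of all genes) and none lower. The basal markers KRT5, KRT14, KRT15 and TP63 had no UMI in the library. Markers of fibroblasts and muscle summed to 5.34 CPM in members and 5.45 CPM in cells at 0, endothelial markers to 0.647 and 0.0992 CPM, and immune markers to 0.485 and 0.521 CPM. Of 12 neuroendocrine genes, 9 had no UMI in members, CHGA, CHGB and INSM1 among them, and SYT4 and ENO2 were the only 2 past 20 CPM. Both were higher in members past the limit, beside 5.74% of all genes. ENO2, a glycolytic enzyme used as a neuronal marker, was at 34.1 CPM against 17.3 CPM (log2 ratio 0.98, 0.75 to 1.21). ENO2 reached 20 CPM in members only, so that the filter itself favoured a higher level there. The neuroendocrine list thus summed to 404 CPM in members and 65.7 CPM in cells at 0, of which SYT4 made up most.

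Cell quality differed little between members and cells at 0, while the low class of the cells between was deeper. Members had a median of 12659 UMIs (5075 to 39102) and 3042 genes, and cells at 0 had 13636 UMIs (5013 to 49749) and 3259 genes. The median mitochondrial share was 8.80% in members and 9.38% in cells at 0, and ribosomal protein genes took 32.3% and 32.5% of UMIs. The nuclear RNA MALAT1 was at 50469 and 42492 CPM. Of the members, 2 shared a barcode with RES-B and none with LNCaP or RES-A. Among cells at 0, 4 barcodes were shared with LNCaP, 2 with RES-A and 10 with RES-B. In RES-A, 7 of 4629 cells had a KLK2 or KLK3 UMI (0.151%, exact interval 0.0608 to 0.311, median depth 12164 UMIs), against 38.6% of LNCaP-ENZ48 cells (37.2 to 40.1, median 13968 UMIs). RES-A held almost no kallikrein RNA, so its share is no background level for LNCaP-ENZ48, and the share that free RNA would give there was not measured because the library holds 1 cell line.

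The same rule was applied to the other libraries. In LNCaP in DMSO it gave 202 cells with a score of at least 27.9, and 118 of 2019 cells were at 0. In RES-B it gave 424 cells with a score of at least 1.497, and 2995 of 4239 cells were at 0. In RES-A too few cells had a kallikrein UMI for a top 10%. The glycolysis and hypoxia list had a median log2 ratio of 1.23 in LNCaP and 0.60 in RES-B, and the G2/M list -1.70 and -0.01, beside medians over all genes of -0.17 and -0.01. The androgen-induced list had medians of 0.32 in LNCaP and 0.13 in RES-B. KLK4 had log2 ratios of 0.83 (0.64 to 1.03) in LNCaP and 1.88 (1.76 to 1.99) in RES-B. TMPRSS2 had 1.94 (1.68 to 2.20) and 0.53 (0.26 to 0.79), and PMEPA1 had 1.37 (1.04 to 1.71) and 0.13 (-0.09 to 0.35). The libraries differed in depth (median 26502 UMIs per cell in LNCaP and 12480 in RES-B), and differences between their ratios were not tested.

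The division between KLK2 and KLK3 was present in LNCaP cells in DMSO too. Chosen by KLK3 alone, the top 10% of DMSO cells had SYT4 at 323 CPM against 13.7 CPM in cells with no KLK3 UMI (log2 ratio 4.57, interval 4.35 to 4.78), and chosen by KLK2 alone 72.8 against 63.3 CPM (0.20, 0.00 to 0.40). GSTA1 had a log2 ratio of 3.16 by KLK3 and -2.67 by KLK2, and CAMK2N1 2.49 and -0.30. KLK4 had -0.04 (-0.15 to 0.08) by KLK3 and 1.66 (1.52 to 1.80) by KLK2. In LNCaP-ENZ48 the SYT4 ratios were 3.31 (3.22 to 3.39) by KLK3 and 0.10 (-0.02 to 0.22) by KLK2, and those of GSTA1 2.38 and -0.73. PGK1 was higher by either choice, with 1.56 and 1.88 in LNCaP and 1.68 and 1.53 in LNCaP-ENZ48. In RES-B the choices gave SYT4 ratios of 0.16 and 0.29 and KLK4 ratios of 1.59 and 1.63.

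**Figure D5:**
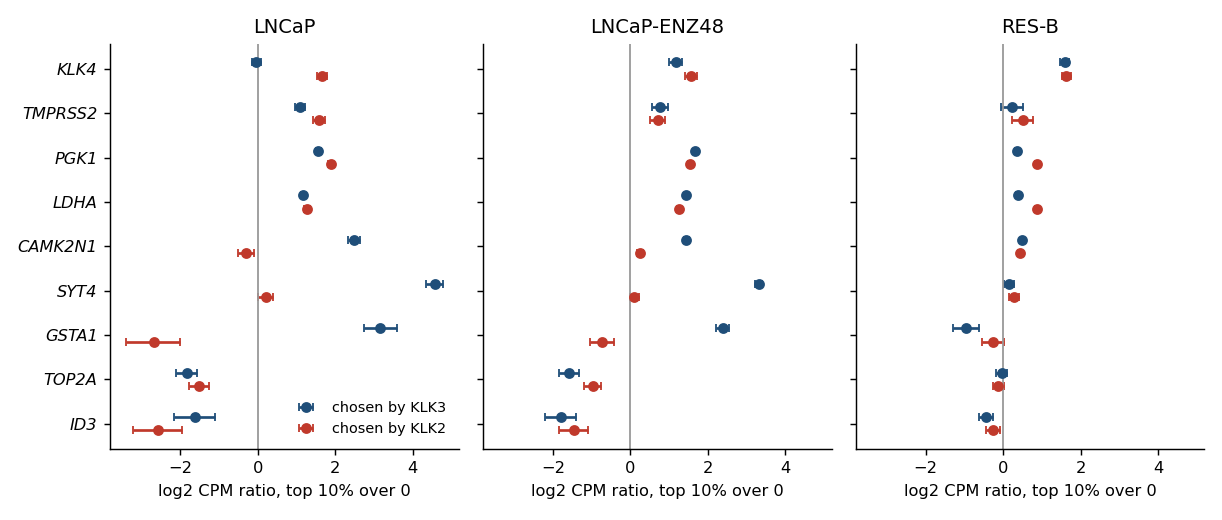
Log2 CPM ratio (x) of 9 genes (y) between the top 10% of cells and cells with no UMI, with cells chosen by KLK3 alone (blue) or KLK2 alone (red) in LNCaP, LNCaP-ENZ48 and RES-B. Bars are 95% binomial intervals. SYT4, GSTA1 and CAMK2N1 part by the gene that chose the cells in LNCaP and LNCaP-ENZ48 (SYT4 4.57 against 0.20 in LNCaP), and PGK1 and LDHA lie above 0 by either choice.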

How the data were processed

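Single-cell RNA sequencing of 4 libraries was used, grouped by sample title. Raw UMI counts per gene and barcode (33538 genes) were deposited, which the authors made with Cell Ranger 3.0.2 and its GRCh38 reference, per the labels and the file headers. Cells were filtered at 1500 genes, 5000 UMIs and 20% mitochondrial UMIs, and no doublet caller was run. UMIs were summed over the cells of a class and given as CPM with exact Poisson 95% intervals. Differences are log2 ratios of CPM, and their intervals come from the Clopper-Pearson method on the share of UMIs. After filtering, 55696198 UMIs remained for LNCaP, 68158371 for LNCaP-ENZ48, 58657527 for RES-A and 57709230 for RES-B, and all intervals cover counting error only, since cells are not replicates and each group is 1 library. The ratio code was tested on simulated counts.

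Counts of genes used those with at least 20 CPM on 1 side, without KLK2 and KLK3, and a limit of 0.32 on the log2 ratio. The members, the 20 gene lists (2 of them from the study) and the rules were chosen with earlier results of these data known, so no pattern is independent support. Named genes were a panel of 22, the 2 highest and 2 lowest genes of each list, and the 12 highest and 12 lowest log2 ratios with an interval off 0 and 1 sign under every planned choice of cells, without mitochondrial and ribosomal protein genes. Of the listed names, 5 were neither a symbol nor a matched older symbol of the matrix. Results of 1 named gene are not reported here. Where a class had no UMI of a gene, 3 UMIs were used in its place. Thinning drew 5000 UMIs per cell. TMM factors came from edgeR 4.0.16. Coordinates were matched by gene ID to GENCODE on GRCh38, and all 98 IDs were placed. Cell Ranger counts reads that map to 1 gene, so genes with near copies (KLK2 and KLK3, metallothioneins) are uncertain as levels. Python 3.11.15, numpy 2.4.6 and scipy 1.17.1 were used.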

Additional observations from a re-analysis of the deposited data

Results flagged for a closer look

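Direction differed between libraries for 2 named genes, with both intervals off 0, and these differences were not tested. PBK, a mitotic kinase, had a log2 ratio of -1.39 between kallikrein-retaining cells and cells at 0 in LNCaP-ENZ48 and 0.27 (0.06 to 0.47) in RES-B. FOXA1, a luminal pioneer factor, had 0.15 (0.05 to 0.24) in LNCaP-ENZ48 and -0.19 (-0.36 to -0.02) in LNCaP in DMSO.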

How the results depend on the processing

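Of 106 recomputed values of the 7 main results, 73 stayed within a set width (or within 1.5-fold for counts), 32 moved and 1 reversed. For single genes this width was that of the counting interval. For the ratio of median UMIs it was that ratio's own interval (0.885 to 0.973). For a list median it was the median width of the list's single-gene intervals, and no interval of the list median itself was computed. The androgen-induced median stayed within that single-gene width in all 17 alternatives (0.02 to 0.21). The G2/M median was 0.029 in cells at or below the median for cycling genes, which removes dividing cells by construction, and -0.39 when KLK2 alone chose the cells, -0.84 for the top 20%, -0.92 for the top 5% and -0.90 at a minimum of 100 CPM. The KLK4 log2 ratio was 2.01 for the top 5%, 1.35 for the top 20%, 1.44 against all other cells and 1.17 with cells chosen by KLK3 alone. KLK2 in cells chosen by KLK3 had 2.78 for the top 5%, 1.64 for the top 20%, 2.16 with cells at 0 weighted to the same depth and 2.08 in the less cycling cells. The genes higher and lower past the log2 limit of 0.32 numbered 454 and 726 for the top 5%, 167 and 253 for the top 20%, 716 and 1331 at 5 CPM, 70 and 49 at 100 CPM, and 106 and 105 at 1.5-fold. The ratio of median UMIs, 0.928, was 0.872 for the top 5%, 0.993 for the top 20% and 0.882 with cells chosen after thinning.

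The last 3 alternatives were chosen after seeing the data. With the minimum taken over all cells of the library, 216 genes were higher and 400 lower. In cells at or below the library's median for the glycolysis and hypoxia list (62 members), 635 genes were higher and 711 lower, the G2/M median was -0.41 and KLK2 in cells chosen by KLK3 had 1.80. The list's own median was then -0.042, with MIR210HG at -0.68, PGK1 at -0.20, P4HA1 at -0.28, LDHA at -0.15 and FOXA1 at -0.22, and for the list genes this choice removes the contrast by construction. In cells above that median the G2/M median was -1.60, KLK4 had 1.46 and KLK2 had 1.76. The cause of the other shifts was not tested.

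No paired analysis was possible because each group is 1 library and all comparisons are between cells of the same library. Low genes are limited by depth: a gene at 20 CPM has about as many UMIs in members as TOP2A had (131), and cells at 0 include cells whose kallikrein RNA was not captured.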

Other observations

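Genes of lipid synthesis and metal binding also differed. Of 23 sterol and fatty acid synthesis genes, 16 reached 20 CPM, with 5 higher in kallikrein-retaining cells and 1 lower past the log2 limit of 0.32 (5.74% and 8.72% of all genes, which also stand beside the counts that follow) and a median log2 ratio of 0.16. The 3 highest were the desaturase SCD (0.87), ACLY, which makes cytosolic acetyl-CoA (0.80), and the fatty acid synthase FASN (0.68). Of 9 metallothionein and zinc transporter genes, the 4 metallothioneins MT1G (1.80), MT2A (1.248), MT1F (1.06) and MT1X (0.97) and the importer SLC39A8 (0.47) were higher, and SLC39A6 (-0.37) was lower. Of these 9, 2 reached 20 CPM in members only, so that the filter itself favoured a higher level there. With the minimum taken over all cells of the library, 4 of 8 were higher (4.54% of all genes so filtered) and 1 was lower. MT2A was also the 1 higher gene of 3 measured glucocorticoid targets. Of 19 amino acid stress genes, 12 were lower (8.72% of all genes) and none higher, with a median of -0.38, among them ATF3 (-0.92), the cystine transporter SLC7A11 (-0.66) and asparagine synthetase ASNS (-0.63). Of the 19, 3 reached 20 CPM in cells at 0 only, and with the library-wide minimum 12 of 19 were lower (8.41% of all genes so filtered). Of 26 ER chaperone and secretory genes, 23 lay within the limit, and of 11 immediate early and heat shock genes, 2 were lower (again beside 8.72%) and none higher. The Persist list, which the study scored in these libraries, had 12 of 15 genes lower beside 8.72% of all genes, CDC20 and MKI67 lowest, and PROSGenesis had 10 of 40 higher beside 5.74% and 1 lower (ATP1B1 and ALAS1 lowest, TSPAN1 and FXYD3 highest). Of the 15 Persist genes, 4 reached 20 CPM in cells at 0 only, and of the 40 PROSGenesis genes, 3 in members only. With the library-wide minimum, 12 of 15 Persist genes were lower (beside 8.41%). By that minimum 8 of 38 PROSGenesis genes were higher (beside 4.54%) and 1 was lower.

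Between members with UMIs of KLK3 only and of KLK2 only, 5189 genes reached 20 CPM in 1 of them, and the genes given here were chosen after their values were seen. Highest in the KLK3-only cells after MT1G, GSTA1 and SYT4 were the phospholipase PLA2G2A (40.0 against 1.75 CPM), the calcium-binding protein S100P (116.02 against 5.25 CPM) and the water channel AQP3 (31.2 against 1.75 CPM). In LNCaP in DMSO their log2 ratios by KLK3 were 4.05, 1.48 and 3.10, and by KLK2 -1.15, -1.53 and -0.72. Higher in the KLK2-only cells were OLFM2 (2.71 against 20.99 CPM) and the potassium channel KCNK1 (8.14 against 54.2 CPM), with log2 ratios in DMSO cells of -2.60 and -1.98 by KLK3 and -0.13 and 0.08 by KLK2. The KLK2-only cells numbered 53, and several of these levels rest on 1 to 3 UMIs.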
